A study of Mus musculus with 12 samples.

Results

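The lysosomal cathepsin genes described here are Ctsa, Ctsb, Ctsc, Ctsd, Ctsf, Ctsh, Ctsl, Ctso, Ctss and Ctsz, 10 of the 38924 genes in the tables. They were chosen by name, with the knowledge that Ctsd and Ctsz were lower in the mutant cord. The expected counts and TPM values of the same 12 mice made that choice, so the genotype differences of these genes are given as a description. The sex difference and the interaction of genotype with sex were not used in the choice and were tested.

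RNA was taken from the whole spinal cord of 8-week-old mice on a mixed strain background given as B6J;CAST, and polyadenylated RNA was sequenced. 6 mice were wild type (WT; females 1, 2 and 10, males 5, 11 and 12). The other 6 carried the P278KY allele of Gars on 1 chromosome copy (GarsP278KY/+; females 3, 4 and 9, males 6, 7 and 8). Gars encodes glycyl-tRNA synthetase, which charges glycine onto its transfer RNA, and dominant mutations in the human gene cause a form of Charcot-Marie-Tooth neuropathy. All mice were of 1 age and the background was mixed, and the labels do not say which mice were littermates.

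Cathepsins are the proteases of the lysosome. Most are made as inactive precursors, carried from the Golgi to the lysosome by mannose 6-phosphate receptors or sortilin, and activated by cleavage in the acidic lumen. They are grouped by the residue that cuts: cathepsin D is an aspartic protease, cathepsin A a serine carboxypeptidase, and the others here are cysteine proteases. In the nervous system neurons and glia both contain them, microglia are a rich source of cathepsin S, and inherited loss of cathepsin D or cathepsin F causes a neuronal storage disease.

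Library totals ran from 26982140 to 39339999 expected counts. The filter on low counts kept 17980 genes, the 10 cathepsin genes among them. Levels are given as CPM (counts per 1e+06 counts of a library), scaled between libraries, for the comparison of mice, and as TPM (RSEM's transcript share per transcript length) for the comparison of genes. The tissue label was met by oligodendrocyte markers, which summed to 25340 to 36220 CPM over the 12 mice. Some libraries stood apart. Skeletal muscle markers summed to 1318 to 9382 CPM in mice 1 to 4, all females, and to 43.38 to 247.1 CPM in the other 8. Sensory ganglion markers summed to 67.7 CPM in P278KY male 7, 34.4 CPM in WT female 10 and 24.92 CPM in WT male 11, and to 2.324 to 11.61 CPM in the other 9. The clock gene Dbp lay at 37.33 to 52.92 CPM in mice 9 to 12 and at 63.47 to 78.77 CPM in mice 1 to 8. Of the genes tested, 956 passed an adjusted p of 0.05 between genotypes in edgeR's quasi-likelihood test with Benjamini-Hochberg adjustment, 425 higher and 531 lower in P278KY, so that 44.5% of the calls were higher. On log2(TPM + 1) the split was 1406 higher and 248 lower, or 85.0% higher.

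The start regions of the genes are shown first, because many lysosomal genes carry a CACGTG element, the E-box to which the transcription factor TFEB and its relatives bind, near the start site. RefSeq windows (GRCm38.p6), from 250 bases before to 50 bases after the start, were matched for 8 of the 10 genes, with 9 windows in all, since Ctsa had 2. Ctsb and Ctsh had no entry. Stretches of 30 bases around each E-box, with CACGTG in capitals, and the bases before the start of Ctsz, with the GC box GGGCGG in capitals, read 5′ to 3′ as follows.
Ctsd, distal E-box, chr7:142388048-142388077, minus strand: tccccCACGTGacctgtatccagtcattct
Ctsd, proximal E-box, chr7:142387908-142387937, minus strand: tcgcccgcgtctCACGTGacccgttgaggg
Ctsa, both E-boxes, chr2:164833758-164833787, plus strand: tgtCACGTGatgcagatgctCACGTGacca
Ctsf, chr19:4855074-4855103, plus strand: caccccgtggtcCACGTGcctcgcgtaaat
Ctsl, chr13:64370739-64370768, minus strand: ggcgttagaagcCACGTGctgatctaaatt
Ctsz, the 250 bases before the start, chr2:174439040-174439289, minus strand: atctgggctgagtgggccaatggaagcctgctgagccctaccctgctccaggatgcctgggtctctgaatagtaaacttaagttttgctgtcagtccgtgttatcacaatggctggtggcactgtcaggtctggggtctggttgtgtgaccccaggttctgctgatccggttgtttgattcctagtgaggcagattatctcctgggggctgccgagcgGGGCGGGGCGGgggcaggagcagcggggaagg

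CACGTG, which reads the same on both strands, was found in the windows of 4 genes (Ctsa, Ctsd, Ctsf and Ctsl), against 7.15% of all 32851 promoter windows. In Ctsd the E-boxes began 245 and 98 bases before the RefSeq start. GENCODE M21 places some gene starts further upstream, so that the proximal Ctsd E-box, the Ctsa pair and the Ctsl E-box lie inside the gene in that annotation, while the distal Ctsd and the Ctsf E-boxes lie before it. The proximal one lies inside the longer palindrome TCACGTGA, which 0.974% of all windows held. Ctsa had 2 copies of TCACGTGA in its second window, with CACGTG beginning 12 bases before and 5 bases after that start. The longer palindrome known as the CLEAR motif, held by 0.326% of windows, was in none of the members' windows. Ctsz had no E-box in its window. Its window held the GC box, searched on both strands and present in 35.7% of all windows, at 3 places, beginning 32 and 27 bases before and 2 bases after the start, and the first 2 of them overlap. TATAAA, held on either strand by 13.6% of windows, was found only in Ctss among the 8 matched genes. These are matches of letters within these windows only. Any part of these elements in the genotype values of the cathepsin genes was not tested.

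Per transcript length, Ctsd was the most abundant of the 10 genes in WT cord, with a median of 326.8 TPM over 6 mice. Ctsb followed at 215.8, Ctsa at 113.4, Ctsl at 92.17, Ctss at 78.32, Ctsf at 53.06, Ctsz at 49.86, Ctsh at 27.18, Ctso at 21.23 and Ctsc at 13.02 TPM. Neighbours in this order whose WT ranges overlapped were Ctsl and Ctss, Ctsf and Ctsz, and Ctso and Ctsc. Within single mice, Ctsl was above Ctss in 10 of 12, Ctsf above Ctsz in 10 of 12 and Ctso above Ctsc in 11 of 12. Every other neighbour pair kept its order in all 12 mice. In CPM the order differs at the top, since the Ctsb transcript is long (mean length 4739 bases in RSEM's estimate, against 2071 to 2128 for Ctsd).

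**Figure D1:**
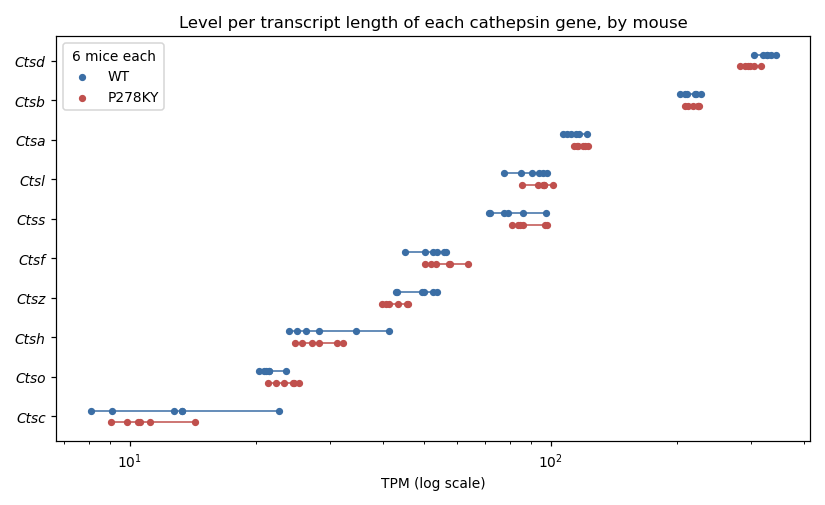
TPM of each cathepsin gene (log axis), 1 point per mouse, 6 WT and 6 P278KY mice, with a line from the lowest to the highest mouse. Ctsd leads in both genotypes, at 304.1 to 343.0 TPM in WT and 282.3 to 316.7 TPM in P278KY, and Ctsc is the lowest by median.

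Together the 10 genes summed to 934.0 to 1052 TPM in WT cord (median 991.0) and to 943.9 to 1008 TPM in P278KY cord (median 974.5), so the summed ranges overlapped. The make-up of the sum differed. Ctsd made up 32.22% to 33.75% of it in WT (median 32.75%) and 29.91% to 31.42% in P278KY (median 30.22%), ranges that did not overlap. The ratio of Ctsd to Ctsb, in TPM within each mouse, was 1.455 to 1.608 in WT and 1.323 to 1.413 in P278KY, also apart. A ratio within a library shows unequal change and not which gene changed, and the lower Ctsd values helped to choose these genes.

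Between genotypes, 2 of the 10 cathepsin genes passed the threshold, Ctsd and Ctsz, both lower in P278KY, and 0 were higher. Among all tested genes 2.95% were called lower, 2.36% higher and 5.32% in either direction; since the genotype contrast chose the genes, nothing is read from this. The other 8 did not pass. 7 of the 10 fitted log2 changes were negative and 3 positive, with a median of -0.04 against -0.0031 over all tested genes. The median depended on the scale and the mice: it was 0.04 on log2(TPM + 1), with 4 values negative and 6 positive, where all tested genes had a median of 0.06, and -0.0005 without mice 9 to 12. At an unadjusted p of 0.05 the same test also gave 2 lower and 0 higher, a count given without the share of all tested genes. DESeq2 and limma voom each called 2 lower and 0 higher. Over all tested genes DESeq2 called 900 lower and 717 higher, and limma voom 522 lower and 411 higher. In whole cord, fewer cells of a type and less RNA per cell cannot be told apart.

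**Figure D2:**
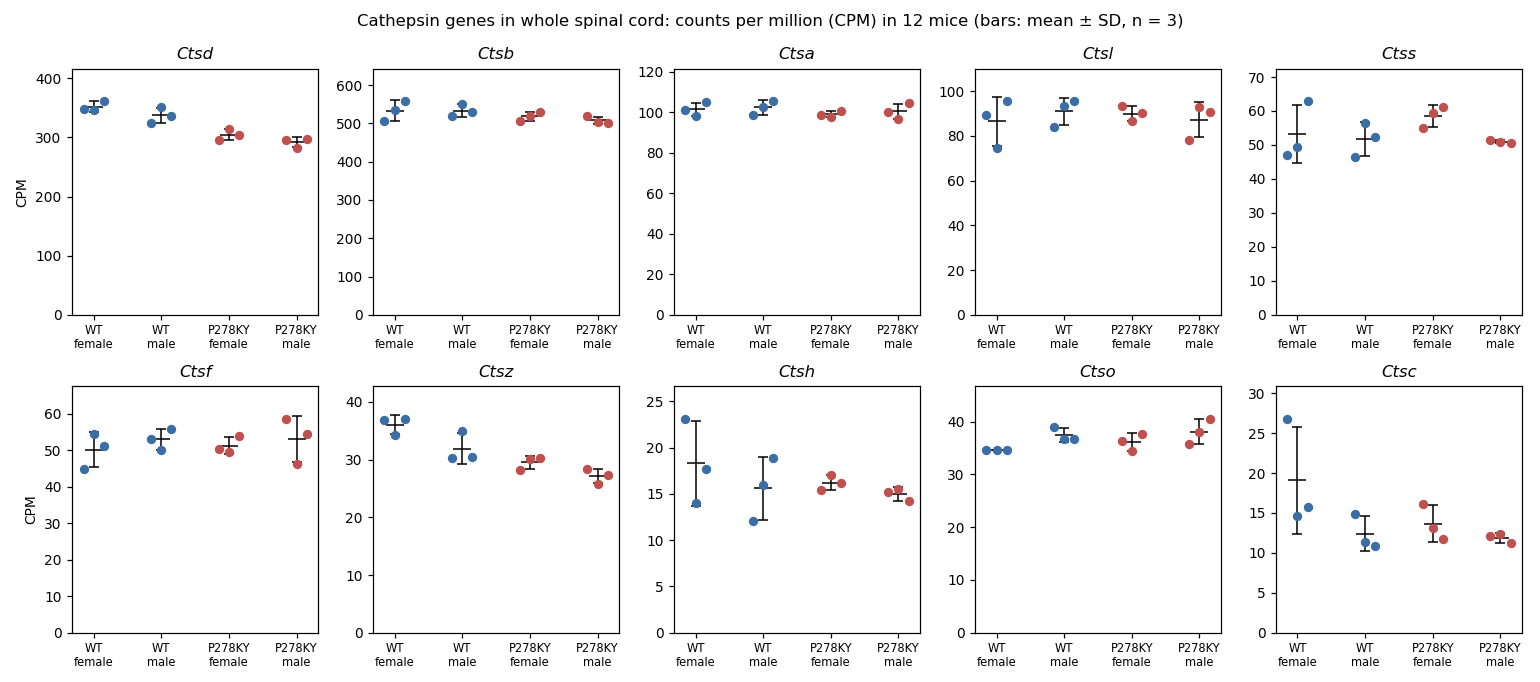
CPM of each cathepsin gene in the 12 mice, by genotype and sex, with mean ± SD of 3 mice per group; each panel has its own axis from 0. The 6 P278KY points of Ctsd (282.5 to 314.7 CPM) all lie below the 6 WT points (325.1 to 362.1 CPM), and WT female 1 stands high for Ctsc and Ctsh.

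Ctsd (ENSMUSG00000007891), which encodes the aspartic endoprotease cathepsin D, lies on the minus strand at chr7:142375911-142388038 (GENCODE M21, GRCm38). WT females 1, 2 and 10 had 348.1, 345.6 and 362.1 CPM, and WT males 5, 11 and 12 had 325.1, 351.2 and 336.1 CPM. P278KY females 3, 4 and 9 had 295.7, 314.7 and 303.7 CPM, and P278KY males 6, 7 and 8 had 295.9, 282.5 and 298.1 CPM. Every P278KY mouse was below every WT mouse, a separation that 2.0% of tested genes showed in this direction. The means were 344.7 ± 12.8 CPM in WT and 298.5 ± 10.6 CPM in P278KY (SD, n = 6 each), 1.155-fold lower, with a log2 change of -0.21 (SE 0.03, adjusted p = 0.00149 in edgeR). In TPM the ranges overlapped, from 282.3 to 316.7 in P278KY and from 304.1 to 343.0 in WT. Of the 10 genes 0 had TPM ranges apart, against 0.762% of tested genes lower and 4.56% higher in P278KY. On log2(TPM + 1) the change was -0.13 (adjusted p = 0.0304 in limma), against a median of 0.06 over all tested genes on that scale.

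Within each sex the log2 change of Ctsd was -0.21 (SE 0.04). The edgeR adjusted p was 0.0612 in females, which did not pass, and 0.0364 in males. Before adjustment the edgeR p was nearly the same, 0.000443 in females and 0.000441 in males. Over both sexes Ctsd was called in each of the 12 fits that left out 1 mouse. Its log2 change there ran from -0.22 to -0.20 and the edgeR adjusted p from 0.00129 to 0.00506. Without mice 9 to 12, which leaves 1 WT male, it was -0.17 and the call was lost (adjusted p = 0.139 in edgeR). GENCODE M21 has a second gene model, Gm49369, that covers 6757 bases of Ctsd on the same strand and is not among the genes of the tables. RSEM's expected counts are fractional where reads fit more than 1 place, and 4 of the 12 Ctsd counts were whole numbers.

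Ctsz (ENSMUSG00000016256) encodes cathepsin Z, also called cathepsin X, a cysteine carboxypeptidase that removes single residues from the end of a protein chain. The gene lies on the minus strand at chr2:174427493-174439039. WT females 1, 2 and 10 had 36.87, 34.29 and 37.12 CPM, and WT males 5, 11 and 12 had 30.31, 34.99 and 30.43 CPM. P278KY females 3, 4 and 9 had 28.29, 30.07 and 30.33 CPM, and P278KY males 6, 7 and 8 had 28.3, 25.81 and 27.29 CPM. In CPM the groups overlapped at 1 place only, where P278KY female 9 was just above WT male 5. Ctsz averaged 34.0 ± 3.01 CPM in WT and 28.4 ± 1.70 CPM in P278KY (SD, n = 6 each), 1.198-fold lower, with a log2 change of -0.26 (SE 0.05, adjusted p = 0.00496 in edgeR). In TPM the overlap was wider, from 39.69 to 45.73 in P278KY and from 42.94 to 53.68 in WT. On log2(TPM + 1) the change was -0.18 (adjusted p = 0.0342 in limma).

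Within each sex Ctsz did not pass, with log2 changes of -0.29 (SE 0.07, adjusted p = 0.0797) in females and -0.23 (SE 0.07, adjusted p = 0.112) in males in edgeR. Over both sexes it was called in all 12 fits that left out 1 mouse (log2 change -0.28 to -0.24, adjusted p 0.00646 to 0.0145). The edgeR adjusted p was 0.0528 without mice 1 to 4, 0.0724 without mice 7, 10 and 11, and 0.145 without mice 9 to 12, with log2 changes of -0.25, -0.21 and -0.23. All 12 Ctsz counts were whole numbers, and its 10-base overlap with Nelfcd on the other strand is short.

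**Figure D3:**
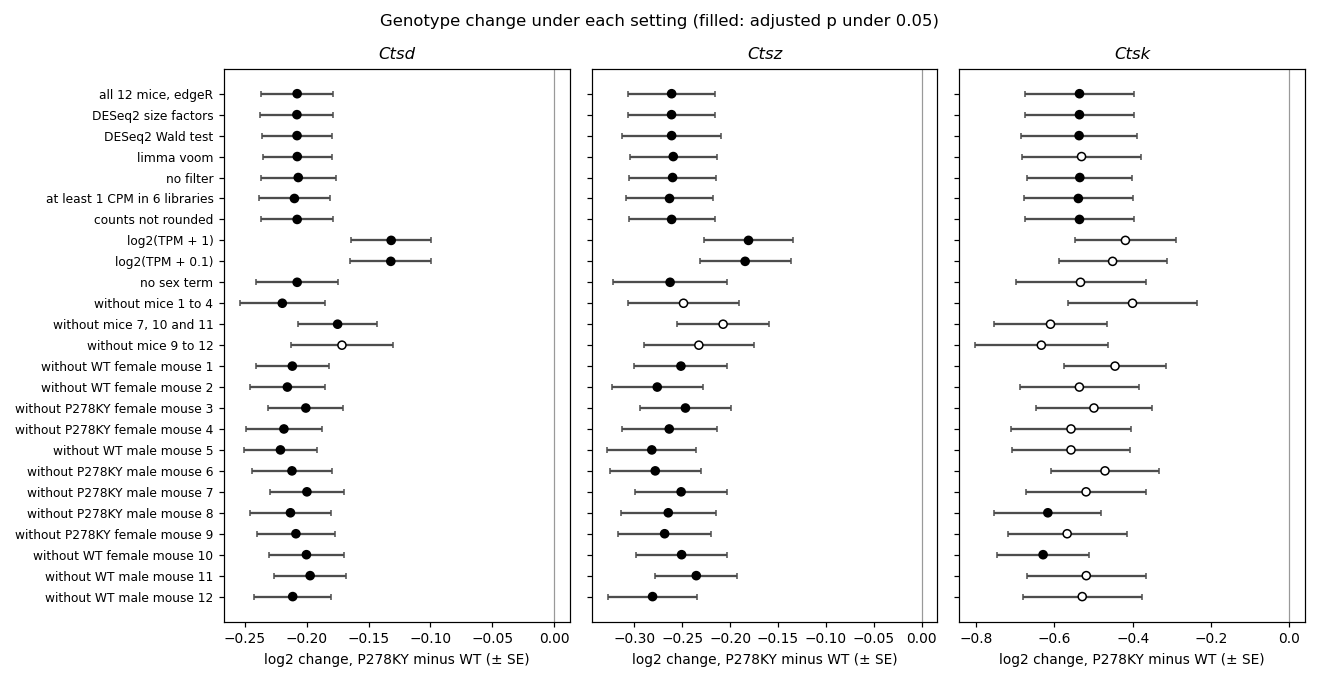
Genotype log2 change (± SE) of Ctsd, Ctsz and Ctsk under each of 24 alternative settings and with all 12 mice; filled points have an adjusted p under 0.05, and each panel has its own axis. Every point lies below 0. Ctsd is not called without mice 9 to 12, and Ctsk, a cathepsin gene outside the 10, is called in 2 of the 12 fits that leave out 1 mouse.

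The cysteine endoproteases Ctsb, Ctsl, Ctss, Ctsf and Ctso showed smaller fitted differences, and their genotype ranges overlapped. Ctsb, which encodes the abundant cathepsin B, lay at 505.4, 532.3 and 559.2 CPM (lowest, median and highest) in WT and at 501.6, 512.6 and 529.1 CPM in P278KY, with a log2 change of -0.05 (SE 0.03, adjusted p = 0.356 in edgeR). None of its 12 counts was whole, and 774 bases of the gene (chr14:63122462-63145923, plus strand) overlap Fdft1, a cholesterol synthesis gene on the other strand. Fdft1 itself was lower in P278KY, with a log2 change of -0.18 (SE 0.03, adjusted p = 0.00619 in edgeR). Whether reads of Fdft1 entered the Ctsb counts was not tested, as no source used here says whether counting kept the strand.

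Ctsl, for cathepsin L, ranged from 74.55 to 95.76 CPM in WT (median 91.47) and from 78.33 to 93.16 CPM in P278KY (median 90.53). Its log2 change was -0.00 with an SE of 0.06, and its sign depended on which mice were kept. Ctss, the cathepsin S gene of microglia and other antigen-presenting cells, ranged from 46.57 to 63.03 CPM in WT (median 50.93) and from 50.6 to 61.21 CPM in P278KY (median 53.16). The highest Ctss value was that of WT female 10. The log2 change of Ctss was 0.06 (SE 0.07, adjusted p = 0.730 in edgeR), and it was -0.03 without mice 1 to 4, 0.17 without mice 7, 10 and 11 and 0.19 without mice 9 to 12, none of which passed.

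Ctsf, for cathepsin F, lay between 44.88 and 55.78 CPM in WT (median 52.15) and between 46.32 and 58.69 CPM in P278KY (median 52.09), a log2 change of 0.02 (SE 0.06). Ctso, for the less studied cathepsin O, lay between 34.55 and 38.98 CPM in WT (median 35.7) and between 34.38 and 40.59 CPM in P278KY (median 37.04), a log2 change of 0.04 (SE 0.04). Neither passed the test, with adjusted p of 0.905 for Ctsf and 0.587 for Ctso in edgeR.

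Of the remaining cysteine exopeptidases, Ctsc encodes cathepsin C, the dipeptidyl peptidase that activates the granule proteases of immune cells, and Ctsh encodes the aminopeptidase cathepsin H. Ctsc, the lowest of the 10 by TPM, had 10.92, 14.78 and 26.82 CPM in WT (lowest, median and highest) and 11.21, 12.25 and 16.17 CPM in P278KY. Its log2 change of -0.27 was as large as that of Ctsz, but its SE was 0.16 and the adjusted p 0.394 in edgeR. The spread came from WT female 1 at 26.82 CPM, where the other 11 mice lay between 10.92 and 16.17 CPM. Without that mouse the log2 change was -0.10.

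WT female 1 was also the highest mouse for Ctsh, at 23.15 CPM against 12.03 to 18.87 CPM in the other 11. Ctsh had a median of 16.83 CPM in WT and 15.5 CPM in P278KY, and a log2 change of -0.12 (SE 0.12, adjusted p = 0.662 in edgeR), or -0.02 without WT female 1. In the same library the 9 tested perivascular macrophage markers summed to 146.8 CPM, against 31.46 to 40.03 CPM in the other 11 mice. The list was uneven: Cbr2 averaged 13.41 CPM in WT and 1.006 CPM in P278KY, and Stab1 19.55 and 17.39 CPM. The log2 change of Cbr2 was -2.47 with an SE of 1.61 (adjusted p = 0.449 in edgeR), so its WT mean need not hold for each WT mouse. How much of the sum in WT female 1 came from Cbr2 alone is not given. Of the 10 markers listed, 9 were tested. Between genotypes 0 were called in edgeR, DESeq2 or limma voom, and 0 had an unadjusted p under 0.05. None was at 0 in all mice. WT female 1 also lay above the other 11 mice in the sums for fibroblasts and meninges (1329 against 467.2 to 791.0 CPM), endothelium (588.0 against 365.6 to 479.0 CPM), red blood cells (5392 against 1076 to 2967 CPM) and skeletal muscle (9382 against 43.38 to 3588 CPM). The part of RNA from any of these cells in the Ctsc and Ctsh values of this mouse was not tested.

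Ctsa, for the serine carboxypeptidase cathepsin A, which also protects lysosomal beta-galactosidase and neuraminidase, varied little between mice. It lay at 98.33, 102.0 and 105.8 CPM in WT and 96.92, 99.39 and 104.5 CPM in P278KY, with a log2 change of -0.03 (SE 0.03, adjusted p = 0.594 in edgeR). Ctsa overlaps Pltp over 1515 bases and Neurl2 over 584 bases, both on the other strand, and 2 of its 12 counts were whole. Pltp had a log2 change of 0.0016 and Neurl2 of -0.32 (SE 0.16, adjusted p = 0.295 in edgeR). On the TPM scale the signs of Ctsa, Ctsb and Ctsl turned positive, with log2(TPM + 1) changes of 0.06, 0.02 and 0.07, near the median of 0.06 over all tested genes there.

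The sex of the mouse gave a comparison that the choice of genes did not use. No cathepsin gene passed the test between males and females after adjustment (0 of 10, against 0.089% of all tested genes), by edgeR, DESeq2 or limma voom. Before adjustment 3 of the 10 had p under 0.05 in edgeR, against 8.95% of all tested genes. The count was 4 each in DESeq2 and in limma voom, and 5 in edgeR without WT female 1. No share of all tested genes is given for these other fits, so nothing is read from their higher counts. Ctsz came closest, with a male minus female log2 change of -0.15 (SE 0.05, adjusted p = 0.346 in edgeR). Females were above males by group mean in both genotypes, although WT male 11, at 34.99 CPM, was above WT female 2.

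The other genes under that unadjusted threshold were Ctso, with a male minus female log2 change of 0.10 (SE 0.04, adjusted p = 0.496 in edgeR), and Ctsc, with -0.41 (SE 0.16, adjusted p = 0.5002). Ctsc again rested in part on WT female 1, since its sex difference was -0.24 without that mouse. Over the 10 genes 6 values were negative and 4 positive, with a median of -0.04 against -0.0008 over all tested genes. The 4 females with skeletal muscle RNA, mice 1 to 4, stand in this contrast on 1 side only, and without them 0 of 10 passed again.

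The test of whether the change with genotype differed between males and females was passed by no cathepsin gene (0 of 10 adjusted, 0 of 10 at an unadjusted p of 0.05 in edgeR, against 0.0% and 3.7% of all tested genes). DESeq2 and limma voom also called 0 of 10. Without WT female 10, 1 of the 10 had an unadjusted p under 0.05, and without WT female 2 the count over all tested genes was 1101 against 665. The interaction, the male minus the female log2 change, ran from -0.16 for Ctss to 0.42 for Ctsc, and its smallest p was 0.205. For Ctsd the interaction was -0.0002 with an SE of 0.06 and for Ctsz it was 0.05 with an SE of 0.09.

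**Figure D4:**
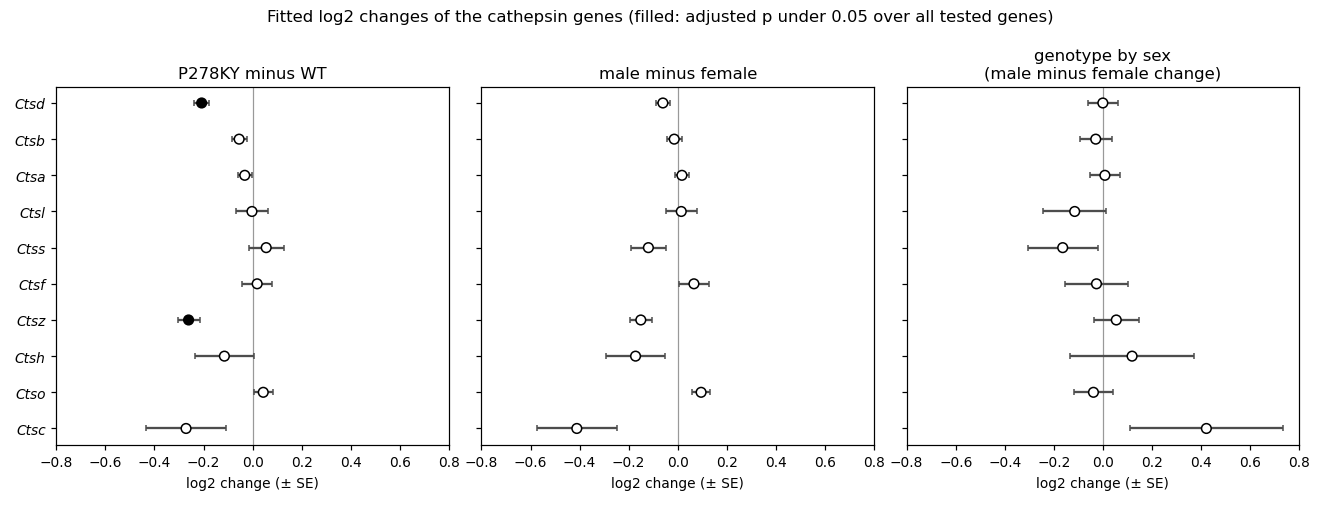
Fitted log2 changes (± SE) of the 10 cathepsin genes for genotype, for sex and for their interaction, in order of TPM; filled points have an adjusted p under 0.05 over all tested genes. Only Ctsd (-0.21) and Ctsz (-0.26) are filled, both in the genotype panel, and the bars of Ctsc are the widest.

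Beyond the 10, 14 further genes named as cathepsins or related proteases were listed, of which 7 were at 0 in all mice and 5 passed the filter. Ctsk, for the collagen-degrading cathepsin K, lies on chromosome 3 at 95499256-95509362, next to Ctss on the same strand. It had 7.926, 9.261 and 14.19 CPM in WT and 4.828, 7.183 and 8.459 CPM in P278KY, overlapping ranges, with a log2 change of -0.54 (SE 0.14, adjusted p = 0.0437 in edgeR). The call held in 2 of 12 fits that left out 1 mouse, with adjusted p up to 0.0991 without P278KY male 6. It was also lost in limma voom (adjusted p = 0.0656) and without mice 1 to 4 (log2 change -0.40, adjusted p = 0.242).

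The other 4 tested were low and not called. Ctse, for the aspartic protease cathepsin E, had a log2 change of 0.65 (SE 0.46), Ctsw, a protease of cytotoxic lymphocytes, 0.44 (SE 0.33), and Ctsg, a neutrophil granule protease, 0.43 (SE 0.39). Napsa, for the aspartic protease napsin A, had -0.63 (SE 0.54) with all mice and 0.29 without WT female 1. Ctse was also high in that mouse and had a log2 change of 1.21 without it, which then passed the threshold (adjusted p = 0.0395 in edgeR).

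Among the inhibitors of cathepsins, 5 of 9 listed genes were tested and 0 were called in edgeR, DESeq2 or limma voom. At an unadjusted p of 0.05 in edgeR 1 was higher and 1 lower, without a share of all tested genes to set beside them. Cst3, for the secreted cystatin C, was far above the others at 525.6, 584.8 and 640.7 CPM in WT and 606.7, 627.1 and 715.2 CPM in P278KY. The CPM ranges overlapped, and the log2 change was 0.15 (SE 0.05, adjusted p = 0.123 in edgeR), or 0.19 without WT male 12, which passed (adjusted p = 0.0461). In TPM the ranges were apart, at 1361 to 1638 in WT and 1673 to 1943 in P278KY. Among all tested genes 4.56% had TPM ranges apart in this direction. The log2(TPM + 1) change of 0.23 passed (adjusted p = 0.0221 in limma), on a scale where 85.0% of all calls were higher. Cstb, for the intracellular stefin B, had a log2 change of 0.06 (SE 0.08) and Cst6, for cystatin E/M, of -0.22 (SE 0.10). Ctla2a and Ctla2b, which resemble cathepsin propeptides, had -0.31 (SE 0.15) and -0.30 (SE 0.27).

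Other genes of the lysosomal system are given by list, beside the 2.95% of all tested genes called lower and 2.36% called higher in edgeR. Over all tested genes DESeq2 called 900 lower and 717 higher, and limma voom 522 lower and 411 higher. No share of all genes stands beside the counts at an unadjusted p. Nothing particular to a list is read from any of these counts. Of 13 genes that sort enzymes to the lysosome (receptors, the phosphotransferase and adaptors), 0 were called in edgeR, 3 were lower at an unadjusted p of 0.05, DESeq2 called 2 lower and limma voom 0, and the median log2 change was -0.06. Of 45 other lysosomal hydrolases and activators, 2 were lower and 0 higher, with a median of -0.06. DESeq2 called 4 lower and limma voom 1. On log2(TPM + 1) the sign of the median turned, to 0.02, with 0 called lower and 1 higher. That median was still below the median over all tested genes on this scale, where 85.0% of all calls were higher. Fits without 1 mouse called from 0 (without mouse 3, 4, 5 or 6) to 4 (without mouse 1) lower. The genes called with all mice were Npc2, a cholesterol carrier of the lysosome lumen, at -0.25 (SE 0.06, adjusted p = 0.0243 in edgeR), and Lipa, the lysosomal acid lipase, at -0.21 (SE 0.06, adjusted p = 0.0490). Npc2 was called in 7 of 12 fits that left out 1 mouse and Lipa in 2 of 12. The largest adjusted p was 0.0631 for Npc2 and 0.116 for Lipa, both without P278KY male 6.

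Of 26 lysosomal membrane genes, 1 was lower, Lamtor1 of the Ragulator complex, which holds mTORC1 at the lysosome, at -0.11 (SE 0.03, adjusted p = 0.0390 in edgeR). It was called in 3 of 12 fits that left out 1 mouse, and the largest adjusted p was 0.0848 without P278KY male 7. DESeq2 called 2 genes of the list lower and limma voom 1. Of 18 subunits of the proton pump that acidifies lysosomes, 0 were called, with 1 higher and 4 lower at an unadjusted p of 0.05 in edgeR, 1 higher in DESeq2 and 0 in limma voom. Of 13 regulators of lysosomal genes, Tfeb among them, 0 were called by any of the 3 tools, with 1 higher and 1 lower at an unadjusted p of 0.05. The TFEB family members Tfeb, Tfe3 and Mitf had log2 changes of -0.14, -0.02 and -0.11. These lists, like the cathepsins, were drawn up with earlier results of these libraries known.

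**Figure D5:**
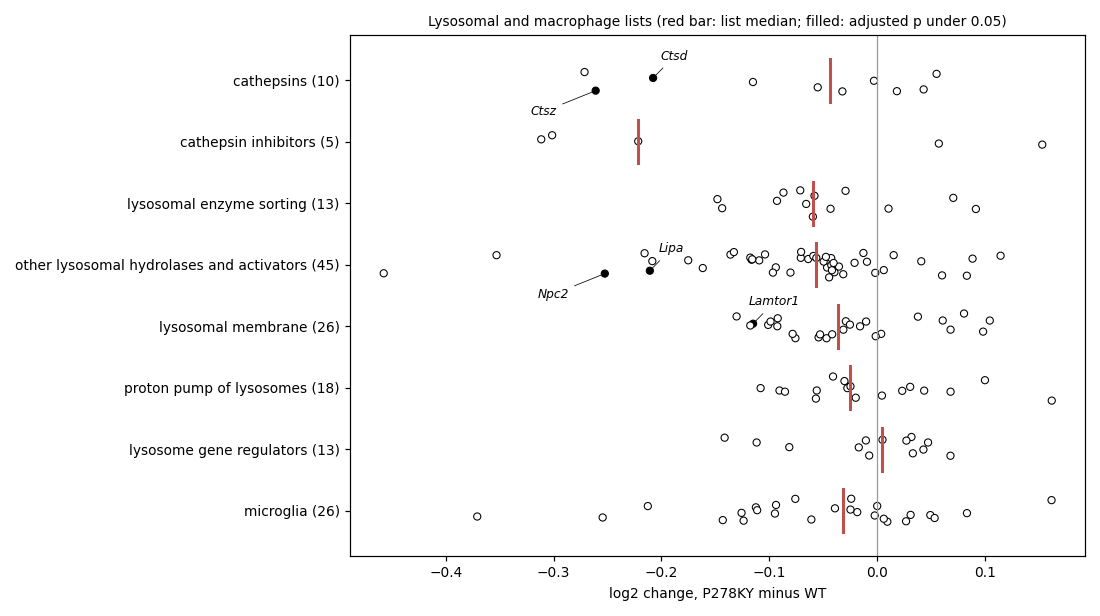
Genotype log2 changes of the tested genes of each lysosomal list and of microglial markers, 1 point per gene; red bars are list medians, filled points passed an adjusted p of 0.05, and the number of tested genes stands beside each name. The called genes, Ctsd, Ctsz, Npc2, Lipa and Lamtor1, all lie below 0, and list medians run from -0.22 for the 5 inhibitors to 0.0052 for the regulators.

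Markers of microglia and of other cell types were set beside these values. All 26 microglial markers were tested and 0 were called by edgeR, DESeq2 or limma voom, and 0 had an unadjusted p under 0.05; their sum ranged from 524.6 to 666.6 CPM in WT and from 509.3 to 611.0 CPM in P278KY. Of 17 tested genes of activated microglia 2 were lower, Spp1, which motor neurons also express, at -0.72 (SE 0.04, adjusted p = 2.47e-06 in edgeR), and Fth1, the ferritin heavy chain made by many cells, at -0.30 (SE 0.07, adjusted p = 0.0279). Fth1 was called in 5 of 12 fits that left out 1 mouse, with adjusted p up to 0.0731 without P278KY male 6. The 17 tested genes summed to 5126 to 6188 CPM in WT and 4613 to 5345 CPM in P278KY. Most of this sum was Fth1, with means of 3885 CPM in WT and 3160 CPM in P278KY, and Apoe, with 1157 and 1311 CPM. Apoe was not called.

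Markers of other cell types were lower in some lists and higher in others. Among 12 motor neuron markers, Mnx1 (log2 change -0.25), Isl1 (-0.06) and Mmp9 (-0.33) were not called. The list's sum ranged from 4411 to 6590 CPM in WT and from 3657 to 3913 CPM in P278KY. Most of it came from Nefm, Nefl and Nefh, which averaged 2303, 2098 and 1259 CPM in WT. In all, 9 of the 12 motor neuron markers were called lower (median log2 change of the list -0.63). Without mice 9 to 12 only 2 of them were called. Among Schwann cell markers 4 of 9 were lower (median -1.03), with sums of 1635 to 2802 CPM in WT and 517.5 to 1726 CPM in P278KY; DESeq2 called 7, and 1 was called without mice 9 to 12. For fibroblasts and meninges 2 of 10 were lower (median -0.37), with sums of 556.3 to 1329 CPM in WT and 467.2 to 609.4 CPM in P278KY, and 0 were called without mice 1 to 4 or without mice 9 to 12. The highest of these sums is that of WT female 1, the other 11 mice reaching at most 791.0 CPM, and the median was -0.20 without that mouse. All 9 markers of bone marrow granulocytes, cells rich in Ctsg and Ctsc products, had positive log2 changes (median 0.61). Of these 0 were called in edgeR or limma voom and 2 in DESeq2, with 6 higher at an unadjusted p of 0.05 in edgeR. The share of all tested genes at that unadjusted threshold is not given, and nothing is read from the count. Their sums ranged from 71.12 to 168.3 CPM in WT and from 128.6 to 218.4 CPM in P278KY. In edgeR, 1 of 11 astrocyte markers was called higher (Slc1a3, 0.37), and 1 of 8 sensory ganglion markers (P2rx3, 1.81). Of 12 neuronal markers Syt1 was called higher (0.16) and Stmn2 lower (-0.27). Syt1 lost the call in 2 of 12 fits that left out 1 mouse. Of 10 oligodendrocyte and 10 endothelial markers 0 were called. No marker of these lists was at 0 in all mice. Their part in the values of the cathepsin genes was not tested.

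In CPM, several cathepsin genes had their extreme values in the same mice. WT female 10 was the highest of the 12 mice in CPM for 5 of the 10 genes (Ctsb, Ctsd, Ctsl, Ctss and Ctsz), and P278KY male 7 was the lowest for 3 (Ctsa, Ctsd and Ctsz). In TPM, WT female 10 was the highest for 3 (Ctsb, Ctsd and Ctsz), and P278KY male 7 was the lowest for Ctsz and the highest for Ctsl. The same mice were the highest and the lowest in the sum of microglial markers, and both were among the 3 with raised ganglion markers. Without mice 7, 10 and 11 the Ctsd change was -0.18 and remained called (adjusted p = 0.0312 in edgeR), and 1 of the 10 genes was called in place of 2.

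Genes whose mouse-to-mouse pattern was most like those of Ctsd and Ctsz were sought among 10640 genes with a mean of at least 10 CPM, on log2 CPM centred on the 4 group means. For Ctsd the closest over 12 mice were Sbk1 (Pearson r 0.94), the glycine receptor gene Glra1 (0.93) and the interferon regulatory factor gene Irf3 (0.93). For Ctsz they were the ribosomal S6 kinase gene Rps6ka1 (0.93), Prdm10 (0.91) and A330044P14Rik (0.88). These values share libraries and depth and are the highest of many, and none of the 6 genes passed the genotype test, their log2 changes running from -0.0047 to 0.11.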

How the data were processed

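Polyadenylated RNA of 12 spinal cords was sequenced as 75-base read pairs with a stranded kit, per the labels' protocols. Bowtie2 2.2.0 and RSEM 1.2.12 are named in the submitters' processing notes; no source at hand gives the genome build, the annotation or the strand setting. The deposited tables hold, per gene and mouse, an expected count (RSEM's estimate, which need not be whole) and a TPM. FPKM values, also deposited by the authors, were not used. Mean transcript lengths are other values deposited by the authors, in bases. The libraries held 26982140 to 39339999 expected counts.

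Expected counts were rounded, filtered with filterByExpr over the 4 groups of 3 mice and scaled by TMM, leaving 17980 genes. edgeR 4.0.16 in R 4.3.3 (quasi-likelihood F test, robust) fitted sex and genotype over all 12 mice, and 4 group means for the interaction and the changes within each sex. Benjamini-Hochberg adjustment ran over all tested genes, with a threshold of 0.05. The scripts were tested on simulated data. Each mouse is 1 replicate. The edgeR p-values set a fitted difference against the spread between these mice, estimated with information from all tested genes.

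The members and all gene lists were chosen with earlier results of these data known. Named genes were all 10 members and every tested gene among the other cathepsins and the inhibitors. The 3 genes most like Ctsd and the 3 most like Ctsz were also named. In each other list up to 4 called genes per direction were chosen, not all of which are printed here. The TFEB family, genes that overlap members and some further markers were added after their values were seen. The 24 alternatives were DESeq2 1.42.0 size factors or Wald test, limma 3.58.1 voom, 2 other filters, unrounded counts, log2(TPM + 1) and log2(TPM + 0.1), no sex term, 3 sets of mice left out, and each mouse left out in turn. Gene positions are from GENCODE M21 (GRCm38), which may differ from the authors' annotation, and start regions from RefSeq (GRCm38.p6). A whole count is within 0.005 of an integer.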

Additional observations from a re-analysis of the deposited data

Results flagged for a closer look

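Among 40 groups of 6 mice (20 genes in WT and in P278KY), 5 had a mouse far from the others, each the highest WT mouse; chance marks about 1 group in 20. WT female 1 stood far above the other WT mice for Ctsc (26.82 CPM), Ctse (11.31 CPM), Napsa (8.036 CPM) and Ctla2a (18.42 CPM). WT female 2 did so for Cst6 (3.456 CPM).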

How the results depend on the processing

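Over the 24 alternatives, the 10 cathepsin genes gave 240 genotype values, of which 217 kept direction and call, 4 lost the call and 19 changed sign; of 230 sex values 224 kept both and 6 changed sign. No paired analysis was made, because the labels do not say which mice were littermates. The genes called between genotypes numbered 1617 with the DESeq2 Wald test, 1654 on log2(TPM + 1), 1668 on log2(TPM + 0.1), 557 without mice 1 to 4, 253 without mice 7, 10 and 11 and 84 without mice 9 to 12 (fewer mice), and 542 to 1385 when 1 mouse was left out. The cathepsin genes called lower numbered 1, 1 and 0 without those 3 sets of mice; without mice 9 to 12, edgeR gave 2 lower and 1 higher at an unadjusted p of 0.05. Signs turned on the TPM scales with pseudocounts of 1 and 0.1 for Ctsa (0.0559, 0.0564), Ctsb (0.0212, 0.0213) and Ctsl (0.0748, 0.0755). They turned without mice 1 to 4 for Ctss (-0.031) and Napsa (0.1695), without mice 7, 10 and 11 for Ctsl (0.0303) and Ctsg (-0.0121), and without mice 9 to 12 for Ctsh (0.0163) and Ctsl (0.0986). With 1 mouse left out Ctsf ran from -0.0159 to 0.0576, Ctsl from -0.0541 to 0.0359 and Napsa from -0.7991 to 0.2924. For sex, 208 genes were called by DESeq2, 10 on both TPM scales and 9 without mice 1 to 4; without those mice Ctsa was -0.0188 and Ctsl -0.0602, and without mice 9 to 12 Ctsl was -0.0128. With 1 mouse left out the sex difference of Ctsb ran from -0.0334 to 0.0011 and of Ctsl from -0.0339 to 0.0533. Interaction calls, 0 with all mice in edgeR, numbered 58 in DESeq2, 8 in voom, 1 without a filter, 4 with at least 1 CPM in 6 libraries, 2 and 3 on log2(TPM + 1) and log2(TPM + 0.1), 1 without mice 1 to 4, 28 without mice 7, 10 and 11, and 0 to 42 when 1 mouse was left out. The cause of these shifts was not tested.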
